A study of Mus musculus with 10 samples.

Results

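The mouse mitochondrial genome encodes 37 genes, and all 37 were in the deposited count table of 55487 genes, where they were found as the genes whose name starts with mt-. They comprise 13 protein-coding genes (mRNAs), 2 ribosomal RNAs and 22 transfer RNAs. The libraries came from whole livers of mice aged 22 months, of the strain labelled C57B/6J, kept on a normal chow diet. The 5 Flox libraries are from mice with floxed Arg2 alleles (labelled Arg2fl/fl) and the 5 LKO libraries from co-housed littermates that lack Arg2, the mitochondrial arginase, in hepatocytes (labelled Arg2LKO). The Cre driver of the deletion is not given in the sources used here. RNA was extracted with Trizol and the protocol names oligo-dT, so RNAs without a poly(A) tail were measured only in part. The LKO titles run from 6 to 10 and the LKO columns from 1 to 5, so LKO libraries are called here by their column number, with no link to a title.

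Mitochondrial DNA is a small circle that is transcribed along both strands into long precursors. The tRNAs lie between most of the other genes, and cutting them out releases the rRNAs and mRNAs. All 13 proteins are subunits of the oxidative phosphorylation machinery, where they join many subunits encoded in the nucleus, and liver cells depend on that machinery for fat oxidation, urea synthesis and glucose synthesis. Most mitochondrial mRNAs carry a short poly(A) tail, whereas tRNAs carry none.

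Library totals ranged from 43331354 to 54951415 gene counts. Arg2 itself had 0 to 6 counts per library in both groups, so it does not check the deletion. Defining hepatocyte markers (6 of 6 found) summed to 51486 to 121626 CPM (gene counts scaled to a common library total) in Flox and to 121822 to 150617 CPM in LKO. Alb (albumin) alone held 35951 of the 51486 CPM in Flox 3 and 58035 of the 77470 CPM in Flox 2, the lowest sums. The sums thus rest largely on the gene of 1 secreted protein. Of tissues rich in mitochondria, 3 muscle markers summed to at most 0.293 CPM. Of 2 brown fat markers Ucp1, the defining one, had no count in any library, while Cidea, which coats lipid droplets, ran from 0.0364 to 75.9 CPM in Flox and from 3.95 to 112 CPM in LKO. Markers of red cells summed to 177 to 308 CPM in Flox and 347 to 646 CPM in LKO, and the part of cell composition in the results below was not tested. Flox libraries 2 and 3 stand apart by high acute phase genes (Saa1 and Saa2 took 1.72% and 3.43% of their counts). Several of the results below, but not all, are given with and without them.

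Part of the mitochondrial genome has a near-perfect copy in the nucleus, which bears on what these counts measure, so sequences are shown first. On chromosome 1 of GRCm38 (minus strand), 7 annotated pseudogenes lie side by side from 24611535 to 24616197. They follow the order and spacing of the mitochondrial genes from base 6381 in mt-Co1 to base 11042 in mt-Nd4, over 4663 bases in the nucleus and 4662 in the mitochondrion. The annotated copies of mt-Co2 (Gm28661), mt-Atp6 (Gm10925), mt-Co3 (Gm28437) and mt-Nd4l (Gm10222) were identical to the mitochondrial gene over 681, 678, 783 and 294 bases, and the copy of mt-Nd4 (Gm28439) was identical over its 876 bases. The copy of mt-Nd3 (Gm28438) differed at 1 of 345 bases, written T3C (mitochondrial base, position from the start of the mt-Nd3 gene, nuclear base). The copy of mt-Co1 (Gm29216) covered positions 1054 to 1545 of mt-Co1 and differed at 6 bases, all close to its start (T1056A, C1057T, A1059G, A1060G, C1062A and A1066T). The first 60 bases of 3 such pairs (credited to GENCODE M21, 5′ to 3′ along each gene) are shown because they carry all 7 differences and, for mt-Co3, an identical stretch, with differing bases in capitals. The mt-Nd3 stretch is chrM:9459-9518 and its copy chr1:24613060-24613119.
mt-Nd3: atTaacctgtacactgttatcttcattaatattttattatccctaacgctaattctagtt
Gm28438: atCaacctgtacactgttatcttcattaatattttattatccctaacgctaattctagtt
The mt-Co1 stretch is chrM:6381-6440 and its copy chr1:24616138-24616197.
mt-Co1: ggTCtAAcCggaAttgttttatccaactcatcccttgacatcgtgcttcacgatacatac
Gm29216: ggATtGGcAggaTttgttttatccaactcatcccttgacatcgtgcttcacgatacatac
The mt-Co3 stretch is chrM:8607-8666 and its copy, with the same letters, chr1:24613912-24613971.
mt-Co3: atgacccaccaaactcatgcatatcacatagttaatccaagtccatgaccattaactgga
Gm28437: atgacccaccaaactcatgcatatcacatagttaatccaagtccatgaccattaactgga

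The 6 mRNAs that lie wholly inside this copied span had far lower levels per kilobase than the other mRNAs. Inside it are mt-Co2 and mt-Co3, subunits of cytochrome c oxidase (complex IV), mt-Atp6 and mt-Atp8, subunits of ATP synthase, and mt-Nd3 and mt-Nd4l, subunits of NADH dehydrogenase (complex I). Their means over the 10 libraries ran from 65.9 CPM per kilobase for mt-Nd3 to 497 CPM per kilobase for mt-Co2, with a median of 237. The 5 mRNAs wholly outside ran from 2735 CPM per kilobase for mt-Nd5 to 11175 for mt-Cytb, with a median of 6079. The lowest mRNA outside was thus 5.50 times the highest inside, and the ranges over libraries of the inside and outside mRNAs did not overlap. Both mRNAs that lie partly inside, mt-Co1 (31.8% of its length) and mt-Nd4 (63.6%), were at 10100 and 3174 CPM per kilobase. The 6 inside are also short, at 204 to 784 bases, where those outside have 519 (mt-Nd6) to 1824 bases (mt-Nd5). Some neighbours overlap, inside mt-Atp8 with mt-Atp6 and mt-Nd4l with mt-Nd4, and outside mt-Nd5 with mt-Nd6. The part of length and overlap in these levels was not tested. Across these 13 genes the levels are a description of position, since neighbouring genes share precursors, libraries and sequence.

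**Figure D1:**
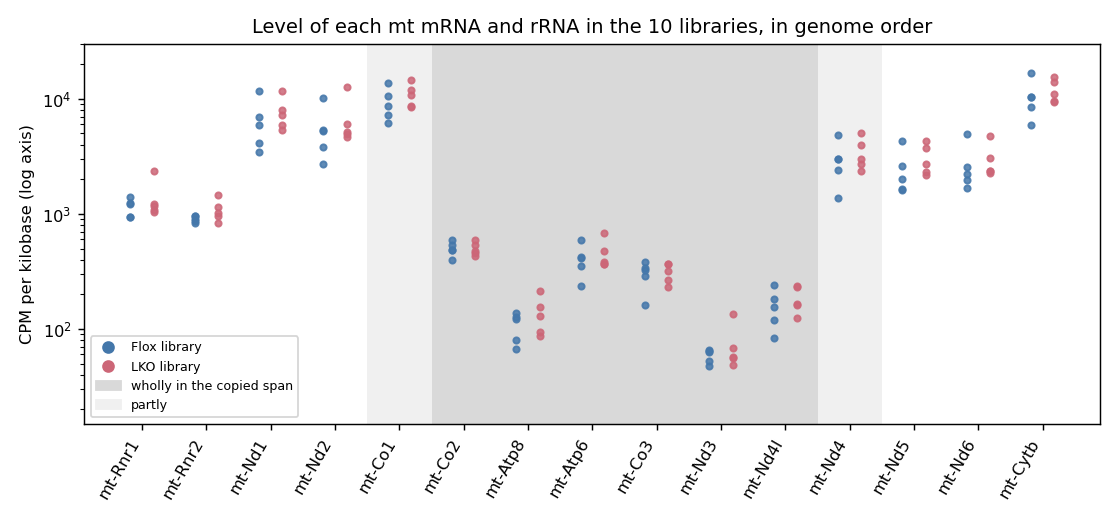
Level of the 13 mt mRNAs and 2 mt rRNAs (x axis, in genome order) in CPM per kilobase (y axis, log scale), 1 point per library, Flox in blue and LKO in red. Dark shading marks the 6 mRNAs wholly inside the span copied on chromosome 1 and light shading the 2 partly inside; the 6 have means of 65.9 to 497 CPM per kilobase, below all other mRNAs and both rRNAs.

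A search for exact matches gave a similar division. Each gene was divided into all overlapping windows of 50 bases, and a window was called matched where the same letters occurred on either strand of an annotated transcript outside the mitochondrial genome. The share of matched windows was 100% in mt-Co2, 99.9% in mt-Co3, 99.5% in mt-Atp6, 98.8% in mt-Nd4l and 98.0% in mt-Nd3. It was 62.2% in mt-Nd4 and 51.1% in mt-Co1, which also has a copy on chromosome 2, and 8.19% in mt-Nd2 and 7.61% in mt-Nd5. In mt-Nd1, mt-Nd6, mt-Cytb and mt-Rnr1 no window matched, and in mt-Rnr2 1.04% did. mt-Atp8 was the exception, with 0% of windows matched and a level of only 122 CPM per kilobase. It starts in the stretch of 233 bases between the mt-Co2 and mt-Atp6 copies, where chromosome 1 has a gap of the same 233 bases with no annotated gene, and only annotated transcripts could be searched. Its end (7766 to 7969) overlaps the start of mt-Atp6 (from 7927) and so the copy Gm10925, and 14 of its 175 windows of 30 bases matched. How the counting treated reads that fit several places is not given in the sources used here, and the part of the copies in the low levels was not tested.

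Reads were counted to the nuclear copies as well. In Flox, Gm28437 had a mean of 261 ± 75.4 CPM beside 235 ± 65.7 CPM for mt-Co3. In LKO these means were 259 ± 32.8 and 243 ± 46.0 CPM (SD over 5 libraries). The ratio of mt-Co3 to Gm28437 lay between 0.818 and 1.03 in all 10 libraries, so the identical pair kept nearly the same proportion in each. The ratio of mt-Co2 to Gm28661 lay between 0.709 and 0.827 and that of mt-Atp6 to Gm10925 between 0.567 and 0.769. That of mt-Nd3 to Gm28438 lay between 0.667 and 1.12 and that of mt-Nd4l to Gm10222 between 1.56 and 2.30. The genes only partly inside the span had higher and wider ratios. For mt-Nd4 to Gm28439 these ran from 16.8 to 44.1, and for mt-Co1 to Gm29216 from 22.8 to 43.1. Per kilobase, mt-Co3 was at 305 CPM and Gm28437 at 332 CPM, and reads that the counting may have left out of both are in neither value. The 7 copies on chromosome 1 took 0.178 ± 0.0464% of all counts in Flox and 0.191 ± 0.0393% in LKO. None of the 7 passed edgeR's quasi-likelihood test (adjusted p from 0.700 to 0.996).

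All mitochondrial genes together took 5.14 ± 1.99% of the counts in Flox and 6.06 ± 1.63% in LKO (SD, n = 5 each). Flox libraries 1 to 5 were at 8.31%, 3.12%, 3.93%, 4.91% and 5.46%, and LKO libraries 1 to 5 at 7.07%, 4.64%, 4.68%, 8.38% and 5.51%. The groups overlapped almost completely: the highest (LKO 4) and the lowest library (Flox 2) differed 2.69-fold, and the difference of 0.913 percentage points between the groups was smaller than the SD within either. Flox 2 and 3 were the lowest of all 10, and without them the Flox mean was 6.23%, above the LKO mean. The mRNAs made up nearly all of it, at 4.89 ± 1.98% of all counts in Flox and 5.75 ± 1.55% in LKO. The rRNAs took 0.253 ± 0.0176% and 0.302 ± 0.0893%, and the tRNAs 0.000731 ± 0.000233% and 0.00107 ± 0.000981%. Without LKO 4 the rRNA difference was 0.0104 percentage points and the tRNA difference turned to -9.78e-05. In whole liver, fewer mitochondria or hepatocytes and less RNA in each cannot be told apart.

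**Figure D2:**
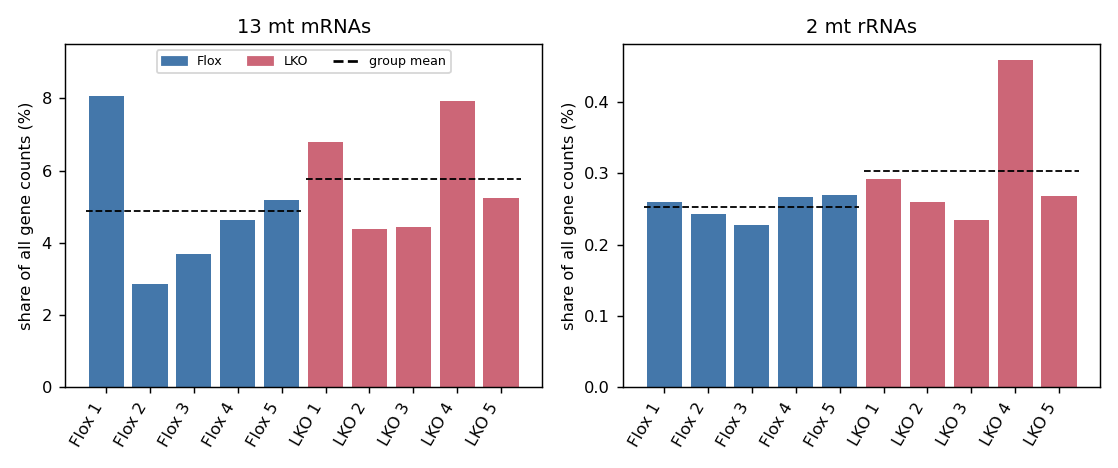
Share of all gene counts (y axis, %) taken by the 13 mt mRNAs (left) and the 2 mt rRNAs (right) in each library (x axis), with dashed lines at the group means. The mRNA bars run from 2.87% in Flox 2 to 8.05% in Flox 1, and the rRNA bar of LKO 4 (0.458%) stands above the other 9.

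No mitochondrial gene differed past the threshold between LKO and Flox. Of the 37 genes, 18 passed the filter on low counts and were tested: all 13 mRNAs, both rRNAs and 3 tRNAs. By edgeR's quasi-likelihood test 0 of these 18 had an adjusted p under 0.05, where 0% of all 15894 genes tested did, and 0 of 18 had an unadjusted p under 0.05, against 7.51% of all genes (3.17% on the side higher in LKO, again with 0 of 18). DESeq2 called 0 of them too (0.0383% of all genes it adjusted). In none of the 18 did the groups separate without overlap, against 0.944% of all genes. All 15 mRNAs and rRNAs had log2 fold changes above 0 (median 0.26), where 48.4% of all genes did (median -0.01), but these genes share precursors and cannot be counted as 15 separate observations. Without Flox 2 and 3, 6 of the 15 were above 0 and the median was -0.03. Without LKO 4, 12 were above 0.

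The rRNAs are the core of the mitochondrial ribosome, and mt-Rnr2 had the smallest p of all mitochondrial genes. mt-Rnr2 (16S rRNA, ENSMUSG00000064339, chromosome M, 1094 to 2675) was at 1436, 1530, 1384, 1325 and 1511 CPM in Flox 1 to 5 and at 1801, 1602, 1316, 2303 and 1530 CPM in LKO 1 to 5. The LKO libraries 1, 2 and 4 lay above every Flox library and LKO 3 below all of them. Its log2 fold change was 0.29 ± 0.16 (SE; unadjusted p = 0.0929, adjusted p = 0.657 by edgeR), 0.30 ± 0.18 without Flox 2 and 3 and 0.16 ± 0.14 without LKO 4. mt-Rnr1 (12S rRNA, 70 to 1024) had means of 1096 ± 196 CPM (Flox) and 1314 ± 541 CPM (LKO), a log2 fold change of 0.30 ± 0.24. LKO 4 held 2276 CPM while the other 4 LKO libraries held 993 to 1156, and without it the log2 fold change was 0.01.

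Complex I, which takes electrons from NADH, has 7 mitochondrial subunits, and they took 43.6 ± 2.78% of the mitochondrial mRNA counts in Flox and 44.8 ± 4.47% in LKO. mt-Nd1 (ENSMUSG00000064341, 2751 to 3707), part of the membrane arm, was at 11096, 3332, 3954, 5645 and 6692 CPM in Flox 1 to 5 and at 7705, 5647, 5153, 11178 and 6926 CPM in LKO 1 to 5. Flox 1 and LKO 4 were the highest and Flox 2 and 3 the lowest, so the LKO range lay almost wholly inside the Flox range. Its log2 fold change was 0.28 ± 0.34 (SE; adjusted p = 0.818 by edgeR), and -0.069 ± 0.30 without Flox 2 and 3. Without LKO 4 it was 0.076 ± 0.34, and without Flox 1 0.64 ± 0.28 (unadjusted p = 0.0419, adjusted p = 0.473 by edgeR). mt-Nd2 was the most variable mRNA, with a coefficient of variation of 49.8% over the 10 libraries and a range from 2797 CPM in Flox 2 to 13192 CPM in LKO 4. Its log2 fold change was 0.32 ± 0.39, and -0.045 without LKO 4. mt-Nd4 and mt-Nd5, the large proton-pumping subunits, had log2 fold changes of 0.24 ± 0.32 and 0.34 ± 0.31, and of 0.53 ± 0.28 and 0.68 ± 0.25 without Flox 1 (for mt-Nd5 unadjusted p = 0.0197, adjusted p = 0.451 by edgeR). The short mt-Nd3 and mt-Nd4l had 0.37 ± 0.26 and 0.26 ± 0.29, but lie in the copied span. The smallest adjusted p among these by edgeR was that of mt-Nd3, at 0.701.

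mt-Nd6 (ENSMUSG00000064368, 13552 to 14070) is the only mRNA on the light strand, transcribed opposite to all the others. It was at 2548, 874, 1030, 1160 and 1317 CPM in Flox 1 to 5 and at 1590, 1231, 1222, 2458 and 1175 CPM in LKO 1 to 5. Flox 1 and LKO 4 again stood above the rest. Its log2 fold change was 0.17 ± 0.32 (SE; adjusted p = 0.888 by edgeR), and -0.10 ± 0.34 without Flox 2 and 3. Per kilobase it stood level with its heavy-strand neighbour mt-Nd5 (2814 against 2735 CPM per kilobase). The strandedness of the counting is not given in the sources used here, and without it reads of mt-Nd6 and reads from the opposite strand cannot be told apart.

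mt-Cytb (ENSMUSG00000064370, 14145 to 15288), the electron-carrying core of complex III, had the highest mean level per kilobase of full gene length. It was at 19273, 6808, 9660, 11835 and 11953 CPM in Flox 1 to 5 and at 16185, 10689, 10984, 17811 and 12640 CPM in LKO 1 to 5. Its log2 fold change was 0.23 ± 0.28 (SE; adjusted p = 0.819 by edgeR), -0.044 ± 0.25 without Flox 2 and 3 and 0.50 ± 0.24 without Flox 1. It took 22.5% to 26.1% of the mitochondrial mRNA counts.

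mt-Co1 (ENSMUSG00000064351, 5328 to 6872), the catalytic subunit of complex IV, held the most counts of all mitochondrial genes. It was at 21272, 9448, 11202, 13455 and 16420 CPM in Flox 1 to 5 and at 22653, 13435, 13015, 18596 and 16550 CPM in LKO 1 to 5. Its log2 fold change was 0.26 ± 0.26 (SE; adjusted p = 0.774 by edgeR), 0.013 ± 0.24 without Flox 2 and 3 and 0.48 ± 0.24 without Flox 1. The partners mt-Co2 and mt-Co3 had log2 fold changes of 0.030 ± 0.14 and 0.088 ± 0.22. mt-Co2 varied least of the mRNAs, with a coefficient of variation of 12.9%, and its sign turned with library totals in place of TMM scaling (-0.0062). The ATP synthase subunits mt-Atp6 and mt-Atp8, read from overlapping frames of one transcript, had log2 fold changes of 0.21 ± 0.25 and 0.39 ± 0.28. All 4 lie in the copied span, and the smallest adjusted p by edgeR was that of mt-Atp8, at 0.705.

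**Figure D3:**
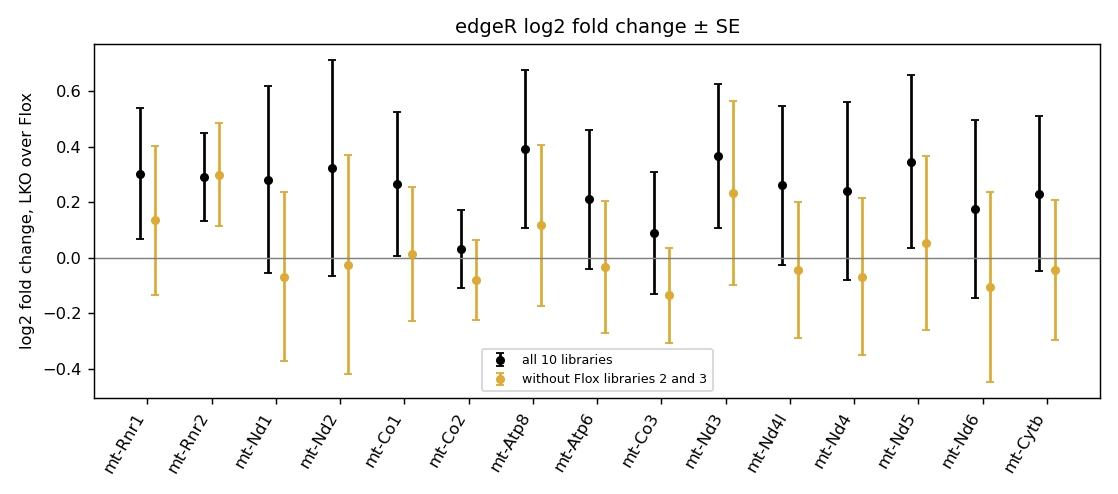
Log2 fold change of LKO over Flox (y axis) with its SE for the 13 mt mRNAs and 2 mt rRNAs (x axis, genome order), from all 10 libraries (black) and without Flox libraries 2 and 3 (yellow). The black points lie between 0.03 and 0.39, and in yellow 9 of the 15 lie below 0.

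The order of levels per kilobase of full gene length was partly fixed. mt-Cytb exceeded mt-Co1 per kilobase in 7 of 10 libraries, and mt-Co1 exceeded mt-Nd1 in 10 of 10. mt-Nd1 exceeded mt-Nd2 in 9 of 10, and mt-Nd2 exceeded mt-Nd4 in 10 of 10 (median ratio 1.83). The neighbours mt-Nd4 and mt-Nd6, and mt-Nd6 and mt-Nd5, kept their order in 7 of 10 libraries each, so these 3 are not separated beyond their spread. mt-Nd5 exceeded mt-Rnr1 in 10 of 10 (median ratio 2.10), and mt-Rnr1 exceeded mt-Rnr2 in 9 of 10. mt-Rnr2 exceeded mt-Co2, the highest of the copied span, in 10 of 10. The rRNAs were thus below the mRNAs outside the span, in a protocol that names oligo-dT. How reads from the matched parts of mt-Co1 and mt-Nd4 were counted is not given. With each mean divided by unmatched 50-base windows alone, per kilobase of their start positions, mt-Co1 (21347 CPM) stood above mt-Cytb (11675 CPM). In the same measure mt-Nd4 (8712) stood above mt-Nd1 (7415), mt-Nd2 (6950), mt-Nd6 (3107) and mt-Nd5 (3042). The places of mt-Co1 and mt-Nd4 thus depend on the length used.

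Balance between transcripts was compared through 6 count ratios, which need no scaling, and none passed the threshold between the groups. mt-Nd1 to mt-Rnr2, an mRNA and an rRNA separated in the genome only by the gene of a leucine tRNA, was 7.73, 2.18, 2.86, 4.26 and 4.43 in Flox 1 to 5 and 4.28, 3.52, 3.92, 4.85 and 4.53 in LKO 1 to 5. The Flox libraries spanned a 3.55-fold range and the LKO libraries lay within it (exact permutation p = 0.778, two-sided). mt-Nd6 to mt-Nd5, the strand comparison, was 0.312 ± 0.0260 in Flox and 0.278 ± 0.0391 in LKO, the smallest p of the 6 (exact permutation p = 0.183). mt-Rnr1 to mt-Rnr2 was 0.768 ± 0.167 and 0.753 ± 0.151 (exact permutation p = 0.817). mt-Co1 to mt-Nd1 was 2.48 ± 0.380 and 2.38 ± 0.461 (exact permutation p = 0.722), and mt-Cytb to mt-Nd1 was 2.02 ± 0.283 and 1.91 ± 0.220 (exact permutation p = 0.5). mt-Nd5 to mt-Nd4 was 1.13 ± 0.268 in Flox and 1.18 ± 0.0550 in LKO (exact permutation p = 0.452). Adjusted over the 6 pairs each p was 0.817, and the smallest p that 5 against 5 allows is 0.00794.

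**Figure D4:**
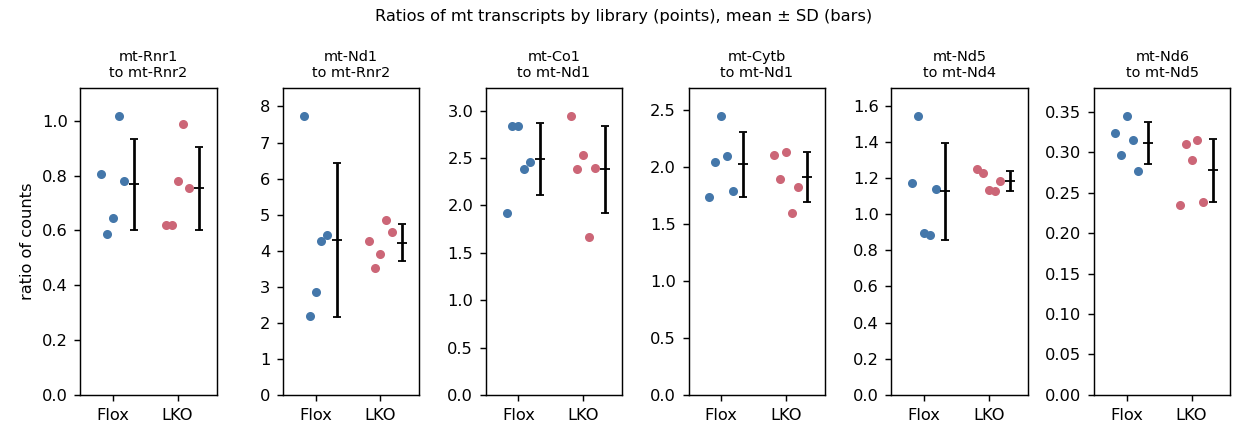
Ratio of counts (y axis, from 0) for 6 pairs of mt transcripts, 1 point per library, with the mean ± SD of each group (bars, n = 5). The groups overlap in each panel, and the Flox points of mt-Nd1 to mt-Rnr2 spread from 2.18 to 7.73.

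The level of mt-Co1 ran opposite to Saa2, a serum amyloid that liver secretes in the acute phase response. LKO 1, with the least Saa2 (11.6 CPM), had the most mt-Co1, and Flox 2 and 3, with 7590 and 17513 CPM of Saa2, had the least. Over the 10 libraries Pearson's r on the log2 scale was -0.878 (permutation p = 0.00084, adjusted 0.00252 over 3 relations) and Spearman's rho -0.879 (permutation p = 0.00157, adjusted 0.00471). Without Flox 2 and 3, the libraries farthest from the median of Saa2, r was -0.785 over the other 8 (permutation p = 0.0163). mt-Co1 stood for the mitochondrial genes here, and the rest were not tested against Saa2. Flox 2 was the lowest library for 13 of 13 mRNAs. Of the rRNAs, mt-Rnr1 was lowest in Flox 3 (895 CPM), but mt-Rnr2 was lowest in LKO 3 (1316 CPM) and at 1530 CPM in Flox 2. In LKO 1 to 5 Saa2 was at 11.6, 249, 146, 74.5 and 28.0 CPM, and in Flox 1, 4 and 5 at 36.5, 1954 and 34.0 CPM, so most of its high values lay in Flox and the group and Saa2 are partly tied. Alb, which encodes albumin, had no relation to mt-Co1 past the threshold (r = 0.558, permutation p = 0.0914, adjusted 0.137; rho = 0.467, permutation p = 0.176, adjusted 0.265), and without Flox 2 and 3 r was -0.164. Nor had the library total (r = 0.0949, permutation p = 0.787, adjusted 0.787; rho = -0.127, permutation p = 0.732, adjusted 0.732), and r was 0.183 without Flox 4 and LKO 5. Alb was lowest in Flox 3 (35951 CPM) and Flox 2 (58035 CPM), and its part in the relation of mt-Co1 with Saa2 was not tested.

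**Figure D5:**
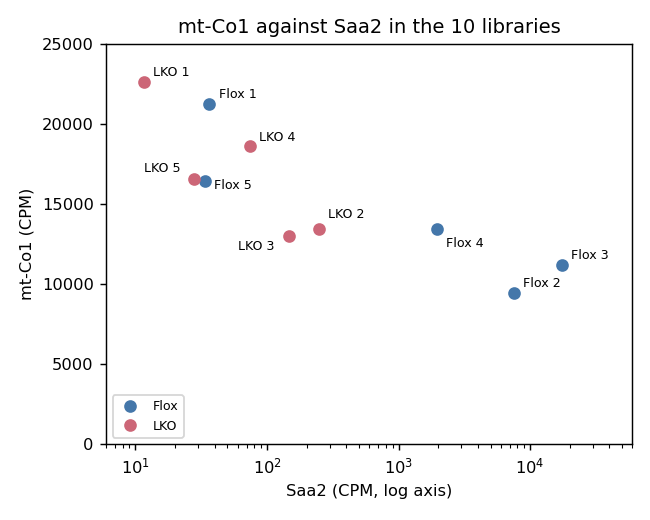
mt-Co1 (y axis, CPM) against Saa2 (x axis, CPM, log scale) in the 10 libraries, Flox in blue and LKO in red. Values of mt-Co1 fall from 22653 CPM at 11.6 CPM of Saa2 (LKO 1) to 9448 and 11202 CPM in Flox 2 and 3.

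The tRNAs were nearly invisible, and nearly all of their counts fell to genes on the light strand, most of them to 1 gene, mt-Tp. All 22 together held 4332 counts over the 10 libraries. The 8 light-strand tRNAs held 4236 of these (97.8%) and the 14 heavy-strand tRNAs 96. The proline tRNA mt-Tp alone held 3506 (80.9% of the tRNA counts), and the other 7 light-strand tRNAs held 730. The heavy-strand tRNA with the most, the leucine tRNA mt-Tl1, held 29. The light-strand mt-Tq (11), mt-Ta (13) and mt-Ty (22) lay within the heavy-strand range of 0 to 29, so the contrast does not hold for each gene. As for mt-Nd6, the strandedness of the counting is not given, and its part in the contrast was not tested. The lysine tRNA mt-Tk had no count in any library, which allows up to 3 counts in each. mt-Tp and mt-Te (glutamic acid) are shown because mt-Tp held most of the tRNA counts and both set LKO 4 apart. Both are from GENCODE M21, written 5′ to 3′ on the minus strand, all in lower case, mt-Tp from chrM:15356-15422 and mt-Te from chrM:14071-14139.
mt-Tp: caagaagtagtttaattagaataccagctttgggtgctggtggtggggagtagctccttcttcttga
mt-Te: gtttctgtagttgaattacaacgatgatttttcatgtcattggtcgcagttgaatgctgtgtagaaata
mt-Tp was at 8.95, 3.57, 4.94, 5.19 and 6.46 CPM in Flox 1 to 5 and at 7.45, 4.15, 4.53, 23.8 and 3.93 CPM in LKO 1 to 5. Only LKO 4 left the common range, and the log2 fold change of 0.62 ± 0.54 (SE; adjusted p = 0.752 by edgeR) was -0.18 without it. mt-Te had 1 to 16 counts in 9 libraries and 35 in LKO 4. mt-Tc (cysteine) and mt-Tn (asparagine), at 0.606 ± 0.157 and 0.420 ± 0.138 CPM in Flox, had log2 fold changes of 0.082 ± 0.27 and 0.21 ± 0.40. All 8 tRNAs with at least 20 counts in total were highest in LKO 4. Of untailed RNAs from outside the mitochondrion, Rn7sk was at 1.08 CPM in LKO 4, 1.4 CPM in Flox 2 and 0.261 to 0.891 CPM elsewhere, and Rmrp, Rpph1 and Terc had no counts. Its part in the LKO 4 values was not tested.

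Nuclear genes that make or process mitochondrial RNA showed no common direction. Of 52 listed, all 52 were tested, and 26 (50.0%) had log2 fold changes above 0, against 48.4% of all genes. The median was 0.0021. By edgeR's test 0 passed and 1 had an unadjusted p under 0.05, a smaller share than the 7.51% of all genes, and DESeq2 also called 0. Polrmt, the mitochondrial RNA polymerase, had means of 26.0 ± 3.55 CPM (Flox) and 22.7 ± 2.35 CPM (LKO; log2 fold change -0.16 ± 0.11). Tfam, which packages mitochondrial DNA and starts its transcription, had 0.13 ± 0.10, and Lrpprc, which stabilises mitochondrial mRNAs, 0.21 ± 0.12. The members with the smallest p were Fastkd1, an RNA-binding protein (0.33 ± 0.15), and Grsf1, of the RNA granules (0.23 ± 0.12), on the higher side, and the protease subunit Clpp (-0.19 ± 0.09) and the tRNA-modifying enzyme Gtpbp3 (-0.31 ± 0.16) on the lower. Each had an adjusted p of 0.652 or more.

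Nuclear subunits of the same respiratory complexes were mostly a little higher in LKO, with none past the test. Of 74 listed, 73 were found and tested, 57 of these (78.1%) had log2 fold changes above 0, where 48.4% of all genes did, and the median was 0.11 against -0.01. edgeR and DESeq2 called 0 of them, and 2 of the 73 had an unadjusted p under 0.05 by edgeR, a smaller share than the 7.51% of all genes. Both were complex I subunits, Ndufc2 (0.27 ± 0.11) and Ndufs1 (0.31 ± 0.14). On the lower side the smallest p were those of Ndufa8 (-0.11 ± 0.10) and Ndufs6 (-0.15 ± 0.14). These 73 genes were measured in the same libraries and cannot be counted as 73 separate observations. Without Flox 2 and 3, 48 of the 73 (65.8%) were above 0, where 48.9% of all genes were, and the median was 0.04. The mitochondrial and the nuclear subunits thus both had positive medians that shrank or turned when these Flox libraries were left out. A difference between the 2 sets was not tested.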

How the data were processed

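Each value in the deposited table is a raw read count for 1 Ensembl gene in 1 library (whole numbers, per the file headers). The aligner STAR 2.5.1a, the counter featureCounts 1.4.6-p5 (of Subread), bcl2fastq and the build GRCm38 are listed in the submitters' processing notes, without settings. After 287 repeated identifiers with the same counts were dropped, 55487 genes remained. Genes were filtered with edgeR's filterByExpr and fitted over the whole table with TMM scaling and edgeR's robust quasi-likelihood test (edgeR 4.0.16, R 4.3.3), LKO against Flox, without covariates. Adjustment was by Benjamini-Hochberg over 15894 genes (threshold 0.05). Standard errors came from the F statistic. DESeq2 1.42.0, limma-voom (limma 3.58.1) with quality weights, other scalings, no filter, leaving out libraries and a block by column number were alternatives. The fit was tested on simulated counts. Correlations used 100000 permutations of log2 CPM (prior count 2). Lengths, positions and sequences are from GENCODE M21 (GRCm38).

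The genes named by rule were the 15 mRNAs and rRNAs, the 4 tRNAs with most counts and, from each nuclear list, the 2 higher and 2 lower members with the smallest p, with Polrmt, Tfam and Lrpprc. The members and lists were chosen with earlier results of these data known, and the nuclear copies, mt-Tl1, mt-Tk and Cidea were singled out after their values were seen. Separate mice are not stated for each library, so p-values measure only the spread between these libraries. Counts of 0 carry counting error only.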

Additional observations from a re-analysis of the deposited data

Results flagged for a closer look

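In groups of 5 libraries, 8 of 58 sets of values had 1 library set apart from the other 4 by a gap that took most of the group's range; chance alone gives about 1 in 20, and the sets share libraries and genes. In 7 of the 8 that library was LKO 4. For mt-Rnr1 the gap was 0.872 of the LKO range (2276 CPM against 993 to 1156 CPM), for mt-Nd2 0.822 (13192 against 4821 to 6315 CPM) and for mt-Nd3 0.770 (47.2 against 16.9 to 23.9 CPM). For mt-Tp it was 0.823 (23.8 against 3.93 to 7.45 CPM) and for mt-Te 0.756 (0.808 against 0.0213 to 0.213 CPM). For the rRNA share of all counts it was 0.742 (0.458% against 0.234% to 0.292%) and for the tRNA share 0.847 (0.00280% against 0.000534% to 0.000881%). The eighth was mt-Nd6 in Flox 1, with a gap of 0.735 of the Flox range (2548 against 874 to 1317 CPM).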

How the results depend on the processing

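The counts of 0 called genes, mitochondrial and nuclear, held in each of the 18 alternatives run. Without Flox 2 and 3 the log2 fold change turned below 0 for mt-Nd1 (-0.069), mt-Nd2 (-0.025), mt-Co2 (-0.080), mt-Atp6 (-0.034), mt-Co3 (-0.14), mt-Nd4l (-0.044), mt-Nd4 (-0.069), mt-Nd6 (-0.10), mt-Cytb (-0.044), mt-Tc (-0.044) and mt-Tn (-0.061), and the ratio differences (log2, LKO minus Flox) turned for mt-Nd1 to mt-Rnr2 (-0.33), mt-Co1 to mt-Nd1 (0.065) and mt-Cytb to mt-Nd1 (0.024). Limma-voom turned mt-Co2 (-0.027), mt-Co3 (-0.013) and mt-Tn (-0.15), and library totals turned mt-Co2 (-0.0062). The correlation of mt-Co1 with Alb was -0.164 without the 2 farthest libraries. The cause was not tested.

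Leaving out 1 library at a time gave log2 fold changes of -0.045 to 0.70 for mt-Nd2, -0.040 to 0.12 for mt-Co2, -0.067 to 0.21 for mt-Co3, -0.062 to 0.54 for mt-Nd6, -0.18 to 0.86 for mt-Tp, -0.069 to 0.24 for mt-Tc and -0.12 to 0.38 for mt-Tn. Ranges that did not cross 0 were 0.076 to 0.64 for mt-Nd1, 0.058 to 0.53 for mt-Nd4, 0.19 to 0.68 for mt-Nd5, 0.10 to 0.50 for mt-Nd4l, 0.021 to 0.49 for mt-Nd3, 0.084 to 0.50 for mt-Cytb, 0.12 to 0.48 for mt-Co1, 0.022 to 0.42 for mt-Atp6, 0.16 to 0.52 for mt-Atp8, 0.010 to 0.40 for mt-Rnr1 and 0.16 to 0.38 for mt-Rnr2. The highest value came without Flox 1 for 7 of these 11. The ratio differences ranged from -0.13 to 0.085 for mt-Rnr1 to mt-Rnr2, -0.11 to 0.35 for mt-Nd1 to mt-Rnr2 and -0.16 to 0.051 for mt-Co1 to mt-Nd1. The correlation of mt-Co1 with Saa2 ranged from -0.900 to -0.836 (adjusted permutation p from 0.0024 to 0.00969) and that with the library total from -0.0562 to 0.282. The difference in mitochondrial share ranged from 0.332 to 1.71 percentage points, that of the mRNAs from 0.322 to 1.65, that of the rRNAs from 0.0104 to 0.0662 and that of the tRNAs from -9.78e-05 to 0.000469, so the tRNA direction turned.

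The titles give the groups no common number, but the columns do. Same-numbered libraries correlated in their deviations at 0.0736 to 0.354, and 2 of 5 Flox libraries matched their own number best. The numbers were therefore not taken as pairs. With column number as a replicate block 0 mitochondrial genes were called (mt-Co1 0.30, adjusted p = 0.530). Each ratio had an adjusted exact permutation p of 0.750 within these blocks. The smallest p that this permutation allows is 0.0625, above the threshold, so it could not have called any ratio and decides nothing about them. With windows of 30 or 100 bases, chosen after the data were seen, the matched share of mt-Co1 was 64.8% or 30.8%. That of mt-Co2, mt-Atp6, mt-Co3, mt-Nd3 and mt-Nd4l stayed at 97.6% or more. Genes outside the copied span moved too. mt-Nd5 was at 17.5% or 0% and mt-Nd2 at 14.1% or 3.19%. mt-Cytb and mt-Nd6, without a match at 50 bases, had 7.35% and 8.37% of windows matched at 30 bases and 0% at 100. mt-Nd1 and mt-Rnr1 had 0% at each length. Depth did not limit the mRNAs, but 17 of 22 tRNAs had under 30 counts in all.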

Other observations

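A less exact set of nuclear copies lies on chromosome 2 (minus strand, 22587291 to 22590533). Gm13341 held matches to 35.3% of the 50-base windows of mt-Co2, Gm13340 to 27.5% of those of mt-Co1 and Gm13339 to 8.19% of those of mt-Nd2. The Flox means were 724 ± 167 CPM for Gm13340, 151 ± 58.7 CPM for Gm13341 and 58.3 ± 35.6 CPM for Gm13339 (SD over 5 libraries). The LKO means were 792 ± 150, 164 ± 76.6 and 66.0 ± 53.6 CPM. As for their mitochondrial counterparts, Flox 2 was the lowest library for each of the 3. The ratio of mt-Co1 to Gm13340 lay between 16.9 and 23.9 in the 10 libraries. None passed edgeR's quasi-likelihood test (adjusted p from 0.811 to 0.925).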
